A study of Homo sapiens with 2 samples.

Results

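The 8 genes described here make, bind or break down hyaluronan: the synthases HAS2 and HAS3, the precursor enzyme UGP2, the receptors CD44 and HMMR, and the breakdown proteins CEMIP, CEMIP2 and HYAL2. They were matched by Entrez ID and are 8 of the 16399 genes with a value in both deposited tables. The set was chosen on measured values, because CEMIP was lower in the PKP2 library, so the values below are a description and no test is attached to them. RNA was sequenced from A549, an established human lung adenocarcinoma line, in 1 library from cells carrying the empty vector and 1 library from cells given PKP2 with an SFB epitope tag. PKP2 encodes plakophilin 2, a plaque protein of the desmosome. Both cultures were at passage 5 in DMEM with serum. The sources used here give neither the promoter that drove the tagged PKP2 nor whether each culture was a clone or a pool.

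Hyaluronan is a long, unsulfated polysaccharide of the space around cells. Synthases in the plasma membrane build it from 2 nucleotide sugars, UDP-glucuronic acid and UDP-N-acetylglucosamine, and push the chain out as it grows. Receptors such as CD44 tie it to the cell, matrix proteins cross-link it, and hyaluronidases together with the CEMIP proteins cut it into shorter chains that lysosomal enzymes finish off. In carcinoma cells the pathway is best known for CD44, a widely used surface marker.

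The libraries held 16996976 (vector) and 16808842 (PKP2) estimated counts, and PKP2 itself was 9.82-fold higher (95% counting interval 8.92 to 10.8) in the library that carries it. A level is given as CPM, the count per 1000000 counts of its library, and the intervals cover counting error only. Each group is 1 library, so nothing here has a replicate check, and a difference between these libraries is not shown to be one between the conditions. A549 keratins and metabolic markers were abundant, with 10 of 10 markers expressed, that is, at 1 CPM or more in either library, and summed to 24674 and 25263 CPM. Among them KRT19 was 1.13-fold higher (1.09 to 1.17), CDH1 was 1.15-fold lower (1.05 to 1.255) and AKR1B10, with a fractional count, was 1.14-fold lower (1.13 to 1.16). On the log2 scale described below, their differences were 0.17, -0.20 and -0.19. With the trend on length and GC content described below removed, they were -0.02, -0.15 and -0.29. Of the 9 fibroblast markers, genes of a cell type known for making much hyaluronan, 7 had a row, none of these at 0 in both libraries, and they summed to 11.1 CPM with the vector and 14.0 CPM with PKP2. Among the 3 expressed fibroblast markers, COL1A1, at 10.4 against 8.12 CPM, had a ratio of 1.27 (1.01 to 1.61). THY1, with 25 counts for the vector and 37 for PKP2, and LUM, with 14 and 19, also had higher values with PKP2. Their intervals of the ratio, 0.877 to 2.59 and 0.652 to 2.96, hold 1. Of the 4 markers under 1 CPM, PDGFRA (8 and 3 counts), COL3A1 (2 and 1) and FAP (1 and 0) had fewer counts with PKP2. PDGFRB had 1 count in each library. Of 7 leukocyte markers, 4 had a row and summed to 85.7 and 89.2 CPM, mostly from the lysosomal gene CD68, and the 4 of 5 endothelial markers with a row summed to 0.294 and 0.952 CPM. Markers without a row were not analysed here, and the part of other cells in the results was not tested.

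CEMIP had the largest difference of the 8 genes between the libraries. CEMIP encodes a secreted hyaluronan-binding protein that cells need for one route of hyaluronan depolymerisation (Entrez ID 57214, chr15:80779343-80951776, plus strand, GRCh38). It had 531 counts, or 31.2 CPM (28.6 to 34.0), with the vector and 284 counts, or 16.9 CPM (15.0 to 19.0), with PKP2. The intervals of the 2 levels do not overlap, and the PKP2 level was the lower by 1.85-fold (1.60 to 2.14). On the scale used for all genes, log2(CPM + 1) for PKP2 minus log2(CPM + 1) for vector, the difference was -0.85. Among the 10846 genes that averaged at least 5 CPM, 9 had a more negative difference, 6 of them with whole counts in both libraries. CEMIP was the 1 gene of the 8 at least 1.5-fold lower on this scale, a step that 0.788% of the 12820 expressed genes reached, and this lower value is what the set was chosen on. In bulk RNA, fewer cells that express a gene and less RNA per cell cannot be told apart. None of the 8 was at least 1.5-fold higher, which 0.733% of expressed genes were.

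CEMIP2 and HMMR were lower by smaller amounts. CEMIP2, also known as TMEM2, encodes a transmembrane relative of CEMIP described as a hyaluronidase of the cell surface (Entrez ID 23670, chr9:71683366-71816690, minus strand). Its level was 355.7 CPM (346.7 to 364.7) with the vector and 299.96 CPM (291.7 to 308.4) with PKP2, 1.19-fold lower (1.14 to 1.23). HMMR encodes RHAMM, a hyaluronan receptor that also binds the mitotic spindle (Entrez ID 3161, chr5:163460203-163491945, plus strand). It stood at 67.0 CPM (63.2 to 71.0) and 59.3 CPM (55.7 to 63.1), 1.13-fold lower (1.04 to 1.23). With CEMIP, these are the 3 of 8 genes whose ratio had a 95% counting interval below 1. Of all expressed genes 19.8% had one too and 16.3% had one above 1, so for CEMIP2 and HMMR such an interval was common in these libraries, and none of the 8 genes had an interval above 1.

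**Figure D1:**
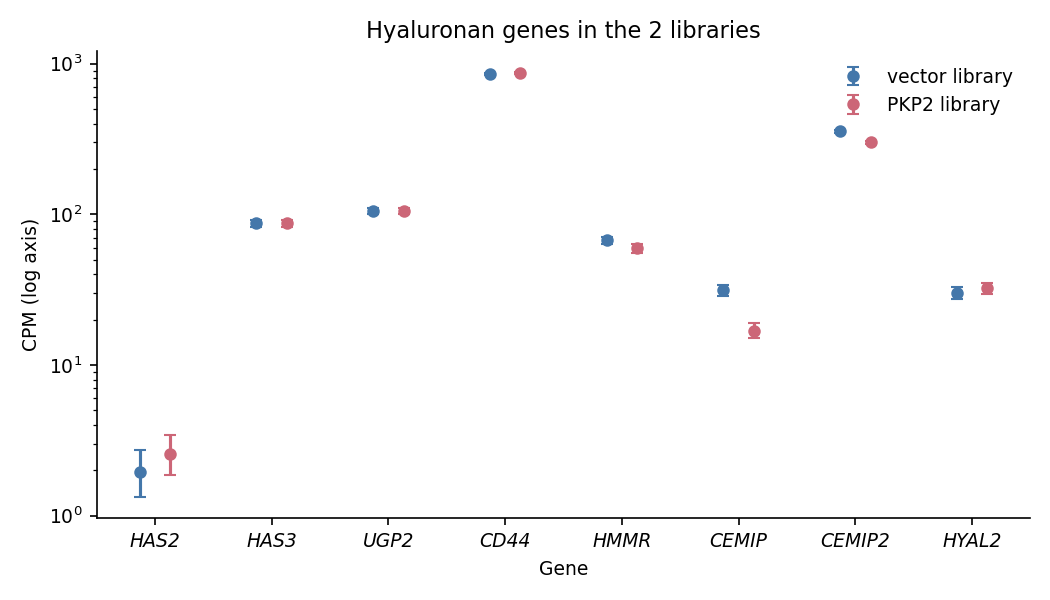
Level of each of the 8 hyaluronan genes in CPM on a log axis, with a point for the vector library and a point for the PKP2 library and bars for the exact 95% Poisson interval of the count. The points of CEMIP lie furthest apart, at 31.2 and 16.9 CPM. HAS2 has the widest bars, and CD44 is the most abundant at 855.6 and 866.2 CPM.

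The windows around the start sites of these 3 lower genes are shown because their short sequence elements differ, as far as letters alone can show. Each runs from 250 bases before to 50 bases after the RefSeq start (GRCh38.p14), 5′ to 3′ on the gene's strand: CEMIP at chr15:80779120-80779419 (plus), CEMIP2 at chr9:71768464-71768763 (minus) and HMMR at chr5:163460382-163460681 (plus). Capitals mark TATAAA and the GC box GGGCGG in CEMIP, the GC box in CEMIP2, and CCAAT and TTTGAA in HMMR, each searched on both strands.
CEMIP: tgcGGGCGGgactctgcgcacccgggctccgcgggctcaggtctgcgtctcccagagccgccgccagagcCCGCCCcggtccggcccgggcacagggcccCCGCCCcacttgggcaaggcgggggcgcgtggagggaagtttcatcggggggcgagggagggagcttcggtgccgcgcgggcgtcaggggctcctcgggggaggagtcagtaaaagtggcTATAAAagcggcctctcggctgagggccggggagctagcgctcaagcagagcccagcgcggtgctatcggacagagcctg
CEMIP2: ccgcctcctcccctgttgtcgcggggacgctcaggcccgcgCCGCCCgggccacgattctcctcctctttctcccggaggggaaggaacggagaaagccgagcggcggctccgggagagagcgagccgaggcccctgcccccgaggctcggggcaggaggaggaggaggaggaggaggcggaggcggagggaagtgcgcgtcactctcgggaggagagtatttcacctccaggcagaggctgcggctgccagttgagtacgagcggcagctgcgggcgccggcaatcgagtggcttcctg
HMMR: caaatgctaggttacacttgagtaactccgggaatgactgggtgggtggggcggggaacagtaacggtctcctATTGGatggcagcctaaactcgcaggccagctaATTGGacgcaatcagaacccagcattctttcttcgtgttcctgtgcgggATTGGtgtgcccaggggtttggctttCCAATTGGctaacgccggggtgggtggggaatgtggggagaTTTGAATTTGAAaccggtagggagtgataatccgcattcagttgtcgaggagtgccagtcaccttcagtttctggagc

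The CEMIP window held TATAAA beginning 30 bases before the start, where a TATA box usually lies, and 3 GC boxes. Of 35116 such windows in the RefSeq table, 11.5% held TATAAA and 45.0% a GC box. HMMR held 5 matches to CCAAT, a pair of them overlapping on opposite strands, and 2 adjacent copies of TTTGAA beginning 28 and 22 bases before its start, besides 1 GC box left in lower case. CCAAT was present in 34.6% of windows and TTTGAA in 15.2%, and in textbook descriptions CCAAT boxes upstream of TTTGAA mark genes of the late cell cycle. The CEMIP2 window held 1 GC box and neither TATAAA nor CCAAT nor TTTGAA, and GENCODE release 29 begins the gene 48177 bases further upstream. GENCODE also begins HMMR 429 bases and CEMIP 27 bases upstream of the RefSeq start, so the distances hold for the RefSeq starts only. CEMIP and CEMIP2 were rich in G and C (73.0% and 70.7% of bases, against a median of 58.7% over all windows), and HMMR was not (53.3%). Windows were found for 7 of the 8 members, 8 windows in all. Among these 8, TATAAA occurred in the CEMIP window and TTTGAA in the HMMR window. The GC box was also in the windows of CD44, HAS3 and UGP2, and CCAAT also in a UGP2 window. TGANTCA, the AP-1 motif, was in none of the 8 and is present in 7.71% of all windows. CACGTG, an E-box, was in the HAS3 window (7.26% of all), and GGAATG, a TEAD motif, in those of HMMR and HYAL2 (14.0% of all). A match is a description of letters and does not show that a factor binds.

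The synthases showed no detectable difference. HAS3, which makes shorter hyaluronan chains (Entrez ID 3038, chr16:69105564-69118719, plus strand), stood at 87.1 CPM (82.7 to 91.6) with the vector and 87.1 CPM (82.7 to 91.7) with PKP2. The ratio was 1.00 (0.930 to 1.08). Its PKP2 count was fractional, which marks reads divided between genes or transcripts, and CHTF8 overlaps it on the opposite strand, so its count is uncertain. HAS2, the synthase of very long chains (Entrez ID 3037, minus strand), had only 33 counts with the vector and 43 with PKP2, or 1.94 CPM (1.34 to 2.73) and 2.56 CPM (1.85 to 3.45). The intervals overlap and the ratio was 1.32 (0.818 to 2.14), so a difference within that interval was not detectable at this depth. HAS1, the third synthase, is outside the 8 genes and was added once its counts, 7 and 3, were known, and no fold is given.

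UGP2 supplies the synthases by making UDP-glucose, the source of UDP-glucuronic acid. UGP2 (Entrez ID 7360, chr2:63840940-63891562, plus strand) stood at 104.9 CPM (100.1 to 109.9) with the vector and 104.7 CPM (99.9 to 109.7) with PKP2. The ratio was 0.998 (0.934 to 1.07). Of the 10 genes of nucleotide sugar supply, 2 had an interval above 1 and 2 below 1, beside 16.3% and 19.8% of all expressed genes, with a median difference of 0.02 against -0.0016 for all expressed genes. NAGK, the kinase that salvages N-acetylglucosamine, was 1.26-fold higher (1.11 to 1.44), at 33.0 against 26.1 CPM. GFPT2 and GFPT1 encode alternative enzymes for the entry step of the hexosamine pathway. GFPT2 was 1.23-fold higher (1.12 to 1.35) and GFPT1, whose count was fractional, was 1.13-fold lower (1.05 to 1.21). The GFPT1 transcript is long (8703 nucleotides). With the trend on length and GC content described below removed, GFPT1 lay at 0.02 instead of -0.18 and GFPT2 at 0.24 instead of 0.29. UGDH, which oxidises UDP-glucose to UDP-glucuronic acid and was added once its values were known, was 1.05-fold lower (1.02 to 1.09), at 353.4 against 371.8 CPM.

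CD44 was the most abundant of the 8 genes and differed little between the libraries. CD44 encodes the main surface receptor for hyaluronan (Entrez ID 960, chr11:35138870-35232402, plus strand). It had 14542 counts with the vector and 14560 with PKP2, or 855.6 CPM (841.7 to 869.6) and 866.2 CPM (852.2 to 880.4). The intervals overlap, and at this depth the ratio of 1.01 had a narrow interval of 0.989 to 1.04. Gene-level counts do not separate the standard CD44 transcript from its variant forms. ESRP1 and ESRP2, the epithelial splicing factors that favour the variant forms, were both under 1 CPM in both libraries, with 4 counts of ESRP1 in each (both genes were added once their values were known).

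CD44 is anchored, shed and spliced by other proteins. Of 10 genes that anchor, shed or splice CD44, 8 were expressed, 5 with an interval below 1 (19.8% of all expressed genes) and 2 above 1 (16.3%), and the median difference was -0.17. ADAM10, a membrane protease that sheds surface proteins including CD44, was 1.26-fold lower (1.21 to 1.32). ADAM17, a related sheddase, stood at 62.3 against 74.8 CPM, with an interval of the ratio of 0.767 to 0.905. ANK3, a spectrin adaptor, was 1.59-fold lower (1.16 to 2.18), at 4.05 against 6.41 CPM, but its difference of -0.56 did not reach the 1.5-fold step, since that scale adds 1 to each CPM. These 3 have long transcripts, and with the trend on length and GC content described below removed they lay at -0.11, -0.11 and -0.34, against -0.33, -0.26 and -0.56 with it. The list's median was then -0.11, and it was -0.05 when the 2 members under 1 CPM were kept.

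The other hyaluronan receptors were sparse. Of the 8 receptor genes, 7 had a row and 3 were expressed: CD44, HMMR and LAYN, a C-type lectin receptor with 13 and 20 counts. LYVE1 and STAB2, receptors of lymphatic and sinusoidal endothelium, had 1 count or none in each library. These genes were named after their counts were seen.

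HMMR is expressed in dividing cells, so it was read beside 10 mitotic genes. Their median difference was -0.05, with 8 lower and 2 higher, beside 6448 lower and 6372 higher of all 12820 expressed genes. Of the 10, 3 had an interval below 1 and 2 above 1, beside 19.8% and 16.3% of all expressed genes. MKI67, the proliferation marker, was 1.32-fold lower (1.28 to 1.36), and the topoisomerase TOP2A was 1.12-fold lower (1.10 to 1.15). AURKB, a mitotic kinase, was 1.15-fold higher (1.07 to 1.23). TPX2, a spindle protein that binds RHAMM, was added once its value was known and had a ratio of 0.993 (0.960 to 1.03). The mitotic genes thus lay on both sides of 0. The difference of HMMR, -0.17, lay inside their range of -0.40 to 0.20, but of these genes only MKI67 was lower. With the trend on length and GC content described below removed, HMMR lay at -0.13, MKI67 at -0.23 and AURKB at 0.01. TOP2A then lay at -0.04 instead of -0.17. MKI67 was then again the only mitotic gene below HMMR.

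HYAL2, the hyaluronidase held on the cell surface by a lipid anchor (Entrez ID 8692, chr3:50317790-50322906, minus strand), showed no detectable difference. It stood at 29.9 CPM (27.4 to 32.7) with the vector and 32.2 CPM (29.5 to 35.0) with PKP2. The intervals overlap and the ratio was 1.07 (0.950 to 1.22). TUSC2 overlaps HYAL2 on the same strand, with 402 and 403 counts. HYAL1 and HYAL3, hyaluronidases encoded beside it, had ratios of 1.12 (0.960 to 1.29) and 1.18 (0.955 to 1.46), both with fractional counts, and HYAL1 was added once its value was known. Of the 6 depolymerase genes with a row 5 were expressed. CEMIP, on which the set was chosen, and CEMIP2 had an interval below 1 (19.8% of all expressed genes), and none had one above 1 (16.3%). The lysosomal enzymes GUSB and HEXA, which take sugars off the ends of the fragments, had ratios of 1.09 (0.975 to 1.23) and 1.03 (0.975 to 1.09), and both intervals hold 1.

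**Figure D2:**
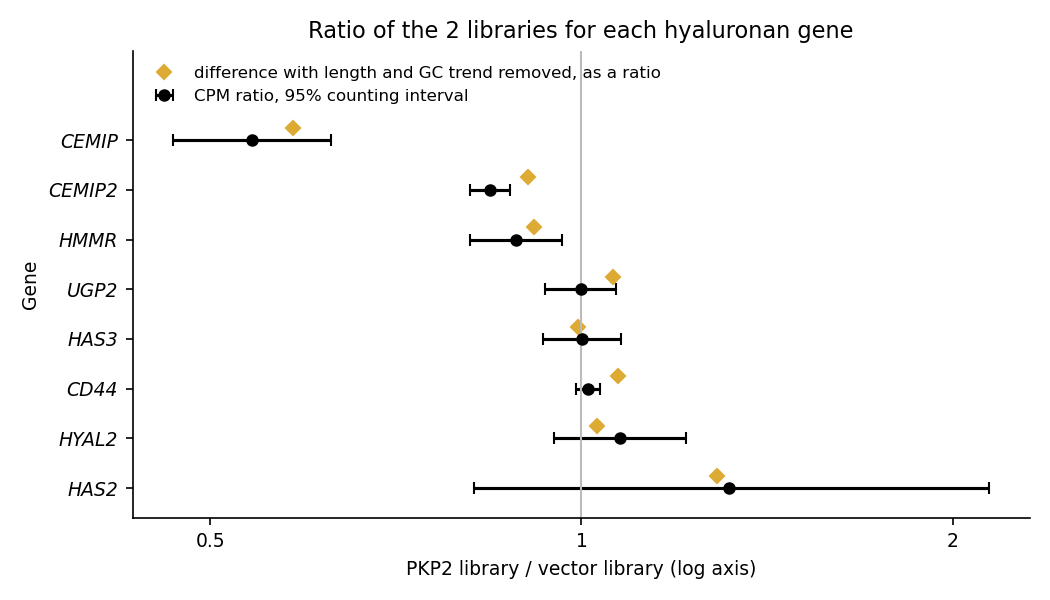
Ratio of CPM in the PKP2 library to CPM in the vector library for each of the 8 genes on a log axis, with exact 95% counting intervals (black) and the difference with the length and GC trend removed drawn as a ratio (yellow). The intervals of CEMIP, CEMIP2 and HMMR lie below 1, and the other 5 hold 1, that of HAS2 from 0.818 to 2.14.

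Divided by the length of the longest annotated transcript, the levels of the 8 genes can be set in order. In the vector library CD44 came first at 149.3 CPM per kilobase, then CEMIP2 at 54.5, UGP2 at 23.9, HMMR at 21.6, HAS3 at 20.6, HYAL2 at 7.39, CEMIP at 4.25 and HAS2 at 0.463. In the PKP2 library the order differed at HMMR and HAS3, neighbours that changed places at 19.1 and 20.6 CPM per kilobase, and CEMIP was at 2.30. On this scale HAS3 made up 96.9% of the summed synthase level with the vector and 96.7% with PKP2. CEMIP2 made up 68.8% and 64.7% of the summed level of the 6 depolymerase genes, and CEMIP 5.36% and 3.23%. The level of CEMIP2 was thus 12.8 times that of CEMIP with the vector and 20.02 times with PKP2. CEMIP2 itself was lower with PKP2, at 46.0 CPM per kilobase. The larger ratio and the smaller share of CEMIP thus restate the lower CEMIP value that the set was chosen on. With the mean length of all annotated transcripts in place of the longest, the ratios of CEMIP2 to CEMIP were 19.97 and 31.1. HAS3 then stood above HMMR in both libraries.

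**Figure D3:**
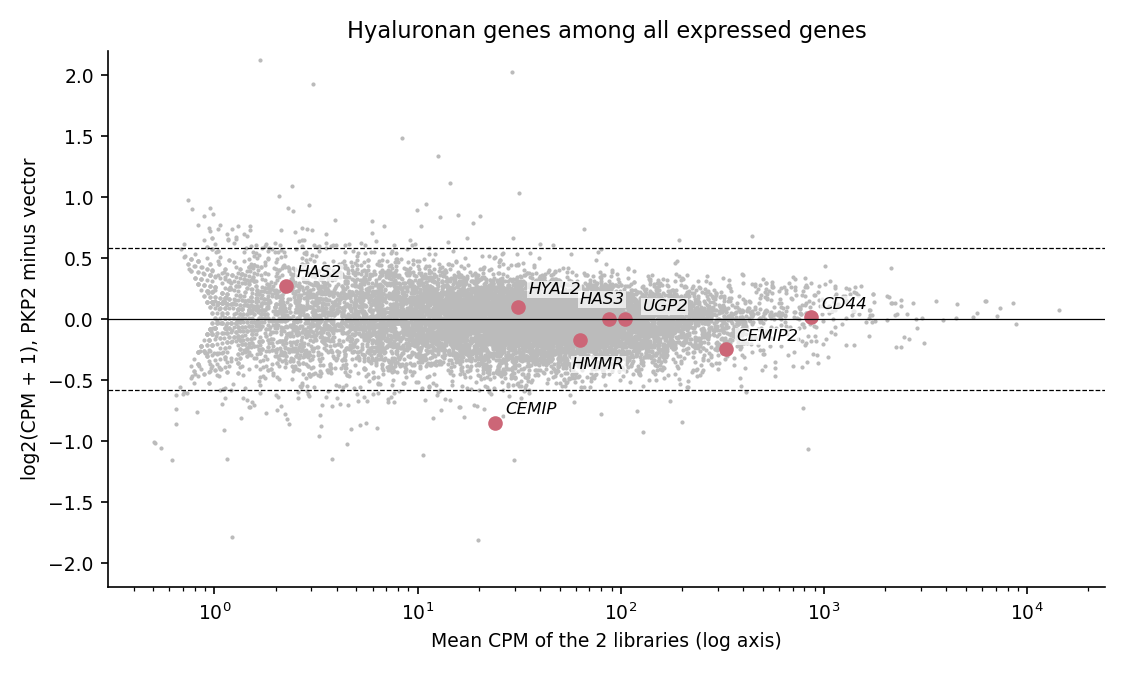
Difference of log2(CPM + 1), PKP2 minus vector, against the mean CPM of the libraries on a log axis, for all 12820 expressed genes (grey, with 3 beyond the drawn range) and the 8 hyaluronan genes (red). Dashed lines mark 1.5-fold, and CEMIP at -0.85 is the 1 red point beyond them.

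Across all genes the difference moved with transcript length and GC content. Genes averaging at least 5 CPM were divided into 5 equal groups by length, and the group with the shortest transcripts had a median difference of 0.13, the group with the longest -0.16. CEMIP (7357 nucleotides) and CEMIP2 (6523 nucleotides) both lie in the longest group, where the central 95% of genes ran from -0.52 to 0.22. CEMIP2 at -0.24 lay inside that range and CEMIP at -0.85 outside it. HMMR, with 3102 nucleotides and 36.7% G and C, lies in the lowest of 5 equal groups by GC content, whose median was -0.12. With an additive trend on both measures removed, CEMIP lay at -0.78, CEMIP2 at -0.14 instead of -0.24 and HMMR at -0.13 instead of -0.17. CD44 then lay at 0.10 instead of 0.02 and UGP2 at 0.09 instead of -0.0026. CEMIP again had 9 genes with a more negative value, of 10797.

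**Figure D4:**
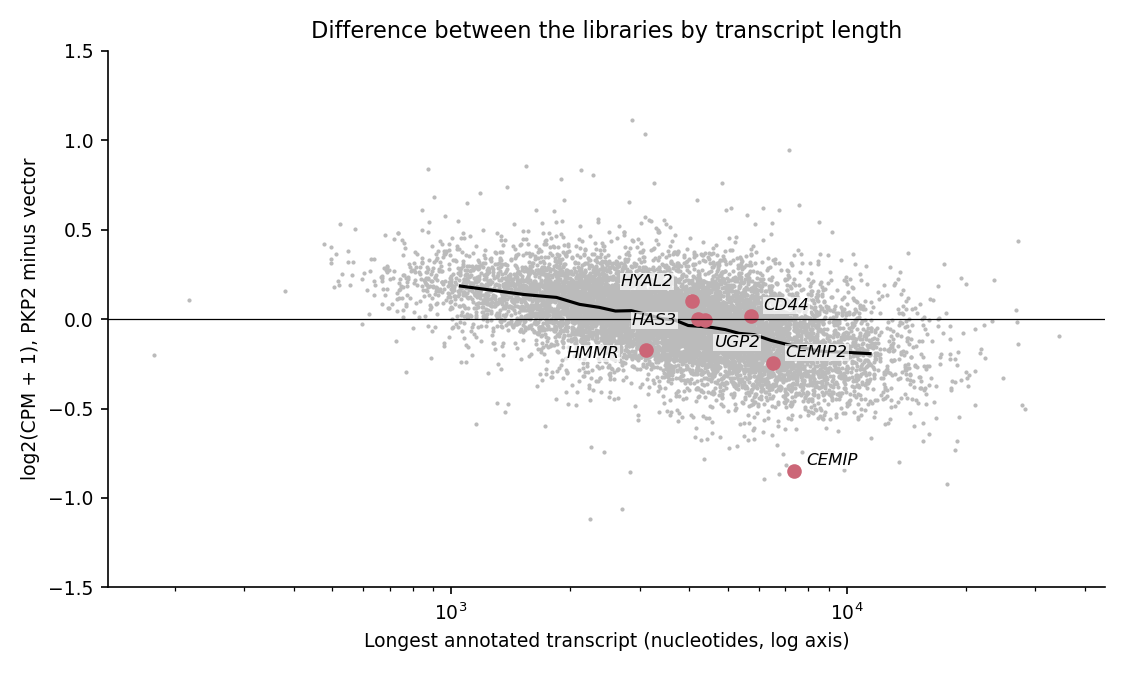
Difference of log2(CPM + 1), PKP2 minus vector, against the longest annotated transcript on a log axis, for genes averaging at least 5 CPM (grey, with 3 beyond the drawn range), the median over 20 groups of equal size (black line) and the 7 hyaluronan genes at that level (red). The line goes down with length, and CEMIP lies far below it while CEMIP2 lies close to it.

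The whole pathway was read beside all expressed genes. The 6 role lists hold 47 genes, of which 43 had a row and 31 were expressed. Of these 31, 21 were higher and 10 lower in the PKP2 library, beside 6372 higher and 6448 lower of all 12820 expressed genes. Of the 31, 3 had an interval above 1 and 6 below 1 (16.3% and 19.8% of all expressed genes). CEMIP, on which the set was chosen, was the 1 gene at least 1.5-fold lower, beside 0.788% of all expressed genes. None was at least 1.5-fold higher, beside 0.733%. The median difference of the 31 was 0.07, that of the 8 genes -0.0010 and that of all expressed genes -0.0016. Among the genes listed as matrix binders of hyaluronan, VCAN, the large proteoglycan versican, had the lowest value. It was 1.35-fold lower (1.29 to 1.41), at 190.1 against 256.5 CPM. Its transcript is long (12625 nucleotides), and its difference was -0.23 instead of -0.43 with the trend removed. HAPLN3, a link protein that fastens proteoglycans to hyaluronan, was 1.31-fold higher (1.02 to 1.70). HABP4, listed as a hyaluronan-binding protein whose place in the matrix was not examined here, had a ratio of 1.06 (0.912 to 1.24).

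**Figure D5:**
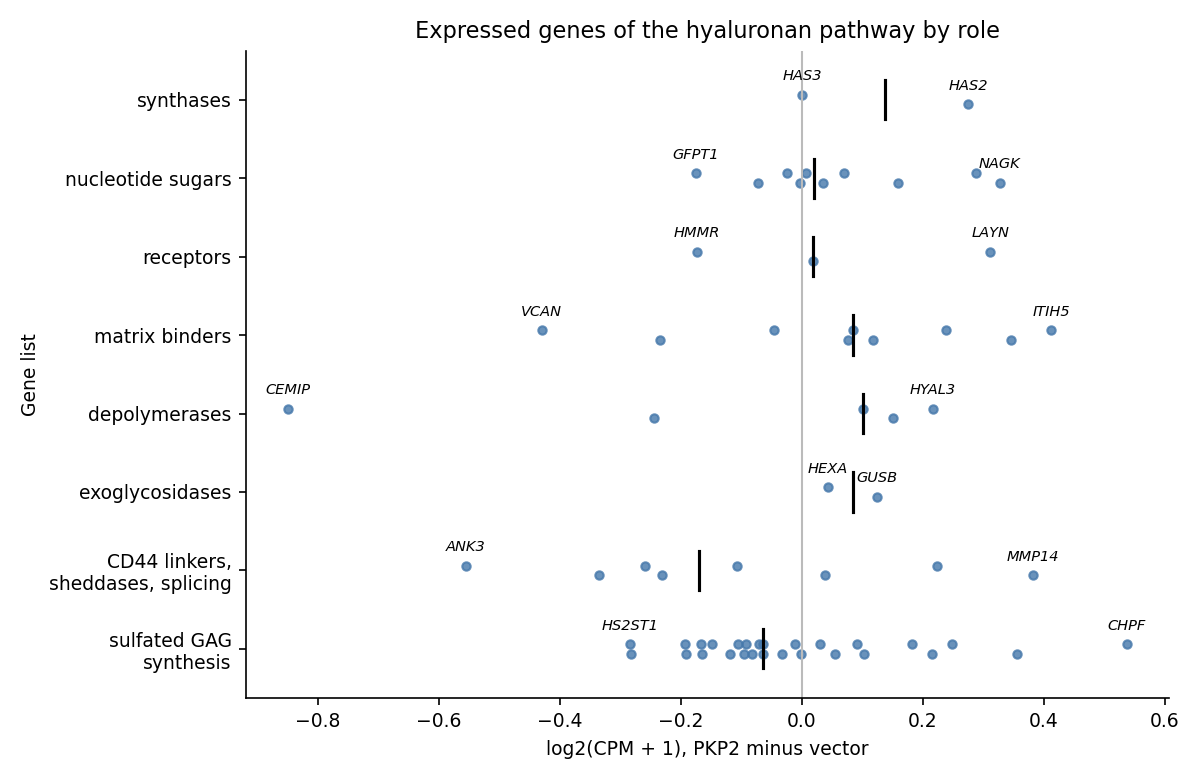
Difference of log2(CPM + 1), PKP2 minus vector, for each expressed gene of 8 lists, with a point per gene, a black bar at the list's median and names at the lowest and highest gene. CEMIP at -0.85 is the point furthest from 0, the medians of the 6 hyaluronan lists lie between 0.02 and 0.14, and that of the genes that anchor, shed or splice CD44 is -0.17.

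CEMIP has an antisense neighbour and several genes of like level. MESD, added for its position, lies on the opposite strand, overlaps the end of CEMIP in GENCODE and had 1716 counts with the vector and 1823 with PKP2. CEMIP and MESD had whole counts in both libraries, and an exchange of reads between them was not tested. With the strand setting not given, reads from the shared stretch cannot be assigned to either gene with certainty. The 5 genes with whole counts closest to CEMIP in the plane of its 2 levels, log2(CPM + 1) in each library, were ZBTB21, FCGBP, SIPA1L2, VPS26C and ABCA12, at distances of 0.178 to 0.246. FCGBP, which encodes a mucus protein, was 1.77-fold lower, at 19.1 against 33.8 CPM, and the other 4 were between 1.498-fold and 1.56-fold lower. A likeness over 2 libraries is a description of these levels only.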

How the data were processed

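Total RNA from 1 vector and 1 PKP2 culture was extracted with Trizol and made into libraries with a TruSeq RNA kit, per the labels' protocols. The authors deposited 1 table per library with an estimated count for each Entrez ID, named counts per the file headers and taken as unscaled. Per the submitters' processing notes, HISAT2 2.0.4, Bowtie2, RSEM 1.2.12 and the build GRCh38.p12 were used. Annotation, filters and strand setting: not given in the sources used here.

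CPM used each library's total. Genes at 1 CPM or more in either library counted as expressed. The difference used a pseudocount of 1, which understates low genes. Exact 95% intervals (Poisson for a level, Clopper-Pearson for a ratio) used counts rounded to whole numbers. The PCR reads have no stated molecular identifiers, so intervals cover counting error only. With 1 library a group no test was run.

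Symbols and promoter windows came from RefSeq (GRCh38.p14), lengths, GC content and gene positions from GENCODE release 29 on GRCh38. Length was known for 98.8% of expressed genes. The additive lowess trend (span 0.3) was fitted to all of these and accounted for 22.4% of the variance. The calculation was tested on simulated data.

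The members and gene lists were chosen with earlier results of these data known. Named were the 8 members, PKP2, up to 3 genes per list with the largest difference at a mean of 5 CPM or more (1 CPM where fewer), and the 5 genes nearest to CEMIP. Other genes were added once their values were known. Leukocyte markers are given by their sum, and 1 gene is not reported here. Python 3.11.15, scipy 1.17.1 and statsmodels 0.14.6 were used.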

Additional observations from a re-analysis of the deposited data

How the results depend on the processing

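No result has a replicate check, and depth limits HAS2, HAS1 and the sparse receptors most. The difference of CEMIP ranged from -0.88 to -0.73 over pseudocounts of 0.1 and 5, median or trimmed-mean scaling and removal of the length and GC trend, and CEMIP was the 1 member at least 1.5-fold lower in each of these. At a threshold of 2-fold on this scale, 0 members were lower. In these settings CEMIP2 ranged from -0.25 to -0.14 and HMMR from -0.18 to -0.13. Of 200 values recomputed, 168 kept within 1.5 times the main count or within the counting interval and 32 moved beyond it. Among the 32 were the length-scaled levels of 7 members under the mean transcript length. The differences of CEMIP2 (-0.14) and CD44 (0.10) with the trend removed were also among them. Genes at least 1.5-fold lower and higher numbered 101 and 94, but 206 and 249 with a pseudocount of 0.1, 20 and 19 with a pseudocount of 5, and 50 and 31 at a mean of 5 CPM or more. Genes at least 2-fold lower and higher numbered 13 and 11, but 52 and 58, 4 and 4, and 5 and 6 in the same settings, and 7 were 2-fold higher with the trend removed. A smaller pseudocount lets low genes pass and a larger one or a filter keeps them out. No paired analysis was possible because each group holds 1 library.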

Other observations

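Sulfated glycosaminoglycans draw on the same UDP-glucuronic acid as hyaluronan. Of 29 genes for the synthesis of chondroitin and heparan sulfate 27 were expressed, 18 lower and 9 higher in the PKP2 library. Of all 12820 expressed genes 6448 were lower and 6372 higher. Of the 27 genes, 7 had an interval below 1 and 5 above 1, beside 19.8% and 16.3% of all expressed genes. Their median difference was -0.06, and 0.0041 without the length and GC trend. CHPF, which polymerises chondroitin, had the largest difference at 0.54, at 357 counts with the vector and 520 with PKP2, 1.47-fold higher (1.28 to 1.69). B3GALT6, which builds the linker between protein and chain, was 1.29-fold higher (1.14 to 1.46). HS2ST1, a heparan sulfotransferase, was 1.22-fold lower (1.11 to 1.35), at 45.2 against 55.2 CPM. With the trend removed CHPF lay at 0.42, B3GALT6 at 0.24 and HS2ST1 at -0.12. No member of this list was at least 1.5-fold apart in either direction. Of all expressed genes 0.788% were lower and 0.733% higher by that step, so none among 27 is no trait of the list.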
